A study of Homo sapiens with 402 samples.

Results

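The S100 family genes described here are S100A8, S100A9, S100A7, S100P, S100A2, S100A4, S100A6, S100A10, S100A14 and S100A16, 10 genes of the 34721 symbols listed in the count tables of a chemical screen in MCF10A cells. They were picked by name, from levels already seen in these data, as the pair S100A8 and S100A9 with other members to set beside it; their levels are therefore a description and no test supports them. MCF10A is an established, non-tumorigenic human breast epithelial line, and every library came from this one wild-type line. Cells were dosed in 384-well plates with 1 of 21 chemicals at 0.025, 0.25, 2.5 or 25 µM for 48 h, and RNA was sequenced from the lysate of each well with the plexWell plate method. There were 333 dosed libraries and 69 control libraries that received only water or DMSO. The groups were DDE on a plate of its own (labelled DMSO, with 8 controls labelled water that carry the same plate barcode), the metals lead, mercury, copper, cadmium and arsenic in water on plate 3153-AT (15 controls), MPB, PPB, BPS, BPF and BPA in DMSO on plate 3206-AT (15 controls), phenanthrene, PFOS, PFNA and PFDA in DMSO (12 controls) and PFOA in water (4 controls) on plate 3240-AT, and thiram, PCB187, PCB153, DCP_25 and DCB_14 in DMSO on plate 3284-AT (15 controls). The labels name plate 3153-AT for the 8 controls of DDE, and another plate for the DDE libraries. These 8 were taken as the DDE controls because of their barcode. The labels call the 4 libraries of a dose biological replicates.

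S100 proteins are small calcium-binding proteins built around a pair of EF-hand loops, and most work as dimers that change shape when calcium rises. S100A8 and S100A9 pair with each other to form calprotectin, which holds zinc and manganese away from microbes and, once released, acts as an alarm signal through the receptors TLR4 and RAGE; it is best known from neutrophils and monocytes and is also made by keratinocytes and other epithelial cells under stress. S100A7, or psoriasin, is an antimicrobial protein of inflamed skin and breast epithelium, S100A2 is typical of basal epithelial cells, S100A4 binds non-muscle myosin, S100A6 binds CACYBP, and S100A10 pairs with annexin A2.

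The start regions of 8 members are printed because S100A8 and S100A9 moved together in the values below. Each run covers 45 bases before the annotated start to 15 bases from it, read 5′ to 3′ on the gene's strand from RefSeq on GRCh38.p14, with the motif TATAAA in capitals where it begins 25 to 35 bases before the start. Where a gene has several annotated starts, as S100A8 does, 1 is shown.
S100A8, chr1:153391059-153391118, minus strand: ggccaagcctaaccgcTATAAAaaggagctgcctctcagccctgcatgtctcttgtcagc
S100A9, chr1:153357809-153357868, plus strand: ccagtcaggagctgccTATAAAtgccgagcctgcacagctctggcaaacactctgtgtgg
S100A7, chr1:153460637-153460696, minus strand: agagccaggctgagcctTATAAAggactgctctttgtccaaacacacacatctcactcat
S100P, chr4:6693833-6693892, plus strand: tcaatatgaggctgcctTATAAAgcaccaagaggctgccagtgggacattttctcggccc
S100A4, chr1:153545792-153545851, minus strand: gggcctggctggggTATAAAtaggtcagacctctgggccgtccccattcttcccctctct
S100A6, chr1:153535977-153536036, minus strand: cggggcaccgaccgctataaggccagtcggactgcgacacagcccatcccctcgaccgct
S100A10, chr1:151993845-151993904, minus strand: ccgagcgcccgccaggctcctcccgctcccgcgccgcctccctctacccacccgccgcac
S100A14, chr1:153616311-153616370, minus strand: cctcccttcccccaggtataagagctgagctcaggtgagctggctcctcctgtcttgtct

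TATAAA lay in that window, on the gene's strand, in 5 members (S100A8, S100A9, S100A7, S100P and S100A4), and in 2.17% of the 35116 start regions in the table. All 10 members had an entry, and the other 5 (S100A2, S100A6, S100A10, S100A14 and S100A16) had no match in the window. In the full 300-base regions, searched on both strands, the AP-1 motif TGANTCA was found for 1 member (7.71% of all regions hold it), TGACNNNGC for 2 (13.3%), CCAAT for 2 (34.6%) and the C/EBP motif TTGCNNAA for 0 (10.5%). A member counted as having a motif if any of its start regions held it, and the 10 members had 14 regions. The percentages are shares of single regions, so the 2 are not like for like. A match is a description of the sequence and not a bound site.

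The library totals ran from 1.43 to 25.8 M counts, with a median of 12.6 M. The libraries of the 4 plates sequenced together fell into first-numbered and last-numbered sets. The first sets held dosed libraries 1 and 2 and the lower control numbers. The last sets held dosed libraries 3 and 4 and the higher control numbers. Control depth moved with these sets: on plate 3153-AT the median control total was 20.9 M in the first set and 3.17 M in the last. The 25 µM libraries had no such gap there, with medians of 8.72 and 9.63 M for arsenic and 18.2 and 15.8 M for lead. On that plate the last-numbered controls had at most 5.40 M counts, and the last-numbered 25 µM libraries at least 7.27 M. On plate 3284-AT the last-numbered medians were 3.18 M for controls and from 3.89 M (thiram) to 19.2 M (PCB187) at 25 µM. The part of depth in the S100 values was not tested. What the numbers stand for is not given in the sources used here. A cadmium 25 µM library with the barcode of plate 3284-AT was set aside, which left 401 libraries and 2 libraries, of 1.43 and 1.45 M counts, for cadmium at 25 µM. Of the listed epithelial identity genes, the keratin KRT5 is given here, with plate medians from 981 to 3377 CPM (counts scaled to a common library total). Of 10 myeloid markers, CD14 had plate medians from 24.7 to 37.3 CPM, PTPRC, ITGAM, CSF3R, LYZ, ELANE, FCN1 and S100A12 had medians of 0 on each plate that lists them, MPO reached a median of 1.93 CPM on the DDE plate, and FCGR3B was not matched. The fibroblast markers listed were COL1A1, COL1A2, DCN, LUM and PDGFRA. Of these DCN alone is given here, with plate medians from 6.29 to 55.4 CPM, and no cell type is read from it.

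S100A6 was the most abundant member and S100A7 the least. Per kilobase of exon, with exon lengths from GENCODE v29, the median over libraries was 2190.2 CPM for S100A6, 769 for S100A16, 572 for S100A10, 462 for S100A2, 92.8 for S100A14, 91.0 for S100A9, 65.9 for S100A4, 55.9 for S100A8, 6.62 for S100P and 0 for S100A7. The ranges of neighbours in that order overlapped over libraries. S100A7 had 0 counts in 320 of the 377 libraries that list it and reached 9.46 CPM; its near-identical copy S100A7A could share its reads, so its values are uncertain. Of the members, 9 lie on chromosome 1 between positions 151982915 and 153616986 (GRCh38), and S100P lies on chromosome 4.

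S100A8 and S100A9 were the members that varied most. S100A8 ran from 0 to 1242 CPM with a median of 35.96, and S100A9 from 0.324 to 1145 CPM with a median of 52.5. The 95th percentile of S100A8 was 405-fold above the 5th, and that of S100A9 144-fold, against 10.1-fold for S100A14, 9.11-fold for S100P, 6.29-fold for S100A2, 4.51-fold for S100A4, 2.40-fold for S100A6 and 1.73-fold for S100A10 and S100A16. The pair went from 0.0144% to 25.99% of the summed CPM of the members, with a median of 1.88%.

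The pair kept close to each other. In the 379 libraries with at least 10 counts of both genes, the ratio of S100A9 to S100A8 CPM had a median of 1.38. S100A9 was the higher of the pair in 352 of 401 libraries; the first-numbered libraries of plate 3153-AT differed, with S100A9 higher in 17 of 48. Over 90 group means of log2(CPM + 1), centred within each plate, the correlation of S100A8 with S100A9 was 0.968, and 0.931 without the arsenic, cadmium and thiram 25 µM groups. The group means of a plate share its controls and its depth pattern, and the value describes these groups only. The correlation of S100A8 with the other members lay between -0.335 and 0.409.

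Outside the S100 family, the gene whose group means went most closely with S100A8 was SLC39A8, a zinc and manganese importer (r = 0.912; 0.774 without those 3 groups), followed by GGT5 (0.85), the lactate dehydrogenase gene LDHA (0.84), CASC19 (0.83) and GALNT15 (0.823), among 13839 genes. S100A9 had SLC39A8 (0.913), LDHA (0.864), GGT5 (0.862), CASC19 (0.861) and NNMT (0.855) as its nearest. The 2 lists share 4 of 5 genes. Without the 3 groups the r of GGT5 with S100A8 was 0.637 and that of LDHA 0.518.

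In untreated cells the level of the pair depended on the plate and on the library number. On plate 3153-AT, S100A8 in the 8 first-numbered water controls had a lowest, median and highest value of 726, 799 and 1078 CPM, and in the 7 last-numbered controls 8.19, 13.6 and 34.5 CPM. S100A9 was at 681, 735 and 997 CPM in the first set and at 10.5, 20.5 and 61.3 CPM in the last. The sets did not overlap, and S100A8 was 5.61 (SE 0.13) higher on the log2 scale in the first set (edgeR quasi-likelihood test, adjusted p = 2.66e-44).

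The same split carried other members on that plate. S100P was at 19.6 to 29.5 CPM in the first set and 1.41 to 10.7 CPM in the last (log2 difference 1.995, SE 0.27), S100A4 at 94.2 to 152 and 27.4 to 67.6 CPM (1.33, SE 0.13), and S100A6 at 1975 to 2596 and 793 to 1111 CPM (1.13, SE 0.06). S100A10 was higher by 0.45, and S100A2 and S100A14 were lower in the first set, by log2 differences of -0.18 and -0.52. In all, 8 members were called there, at an adjusted p under 0.05, where 20.3% of all genes were called. S100A16 was not called.

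The other plates gave the same direction for the pair with smaller differences. On plate 3284-AT, S100A8 was at 151, 234 and 321 CPM (lowest, median, highest) in the first-numbered DMSO controls and at 20.6, 39.6 and 108 CPM in the last, a log2 difference of 2.01 (SE 0.17; edgeR adjusted p = 1.16e-15); 5 members were called, among 6.38% of all genes. On plate 3240-AT the difference was 1.76 (SE 0.22) for S100A8 and 1.77 (SE 0.22) for S100A9, and these 2 were the members called, among 0.546% of all genes. On plate 3206-AT, S100A8 was at 19.7 to 61.1 CPM in the first set and 4.42 to 57.5 CPM in the last, overlapping, and was not called; the 3 members called, among 6.07% of all genes, were S100A2 (-0.87), S100A14 (-0.60) and S100A4 (0.41). S100A2 and S100A14 were lower in the first set on plate 3284-AT too, by -0.87 and -1.04. Within dosed groups of plate 3284-AT, the mean of S100A2 and that of S100A14 were each lower in the first-numbered libraries in 20 of 20 groups.

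**Figure D1:**
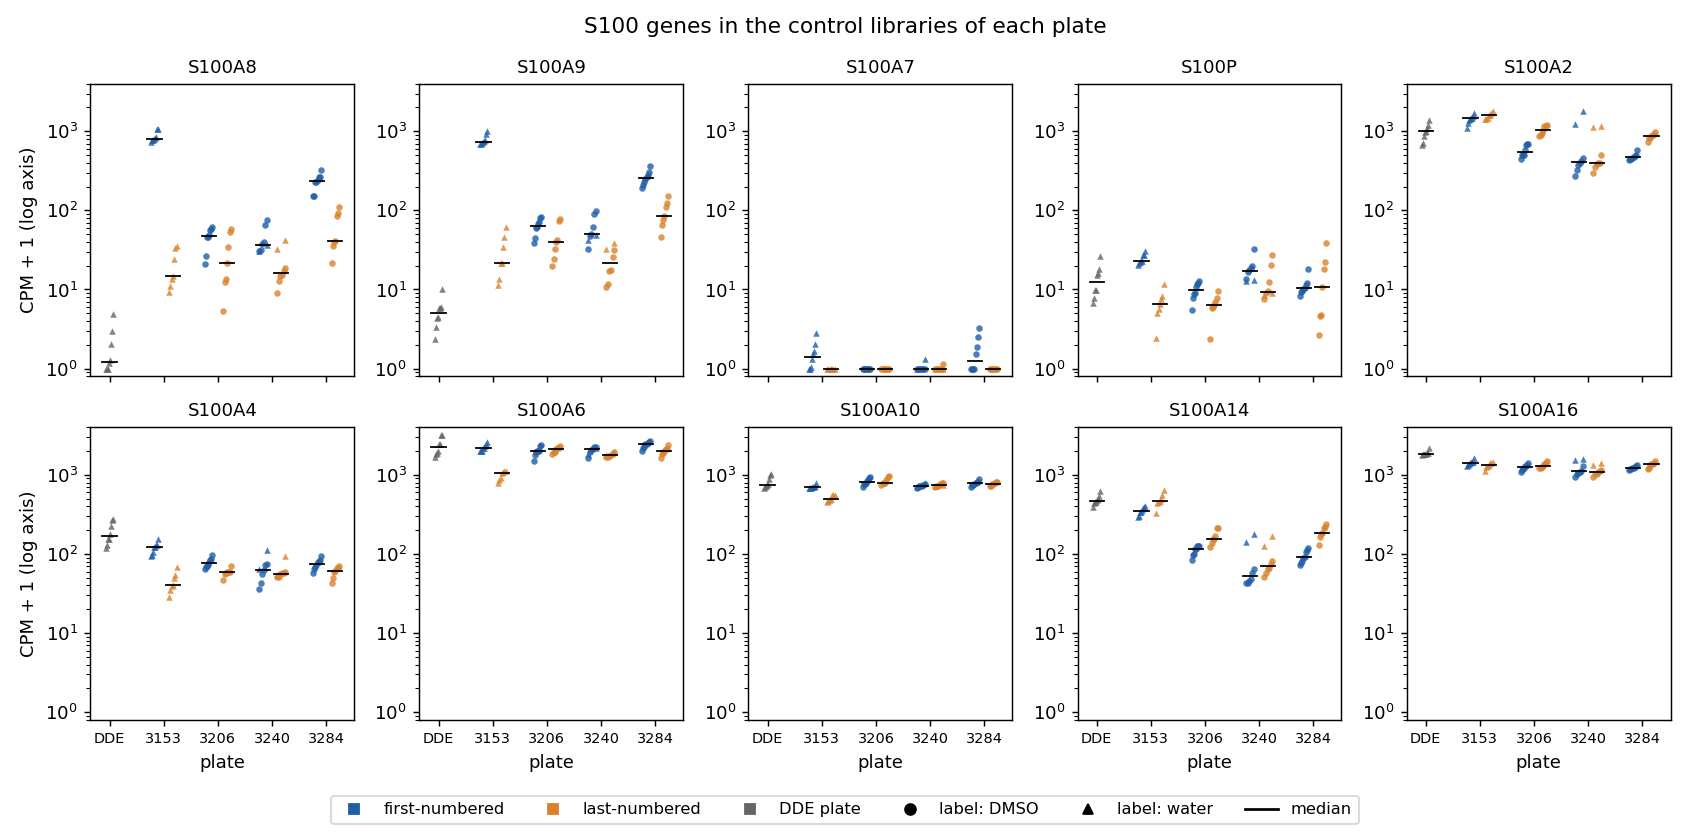
CPM (log axis) of the 10 members in each control library, by plate, with first-numbered and last-numbered controls drawn apart. S100A8 and S100A9 separate the 2 sets on plate 3153-AT, at 726 to 1078 against 8.19 to 34.5 CPM for S100A8, and lie lowest on the DDE plate.

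Controls of the DDE plate had S100A8 at 0, 0.220 and 3.96 CPM (lowest, median, highest, n = 8) and S100A9 at 1.33, 4.11 and 9.16 CPM. That plate was counted against a shorter list of 15081 symbols, which lacks S100A7. In the controls, library depth moved with the number sets as well. The summed myeloid markers were 53.4 to 80.4 CPM in the first-numbered controls of plate 3153-AT and 20.2 to 40.1 CPM in the last. Without CD14 those sums were at most 3.63 and 1.72 CPM. On the other plates with number sets the sums overlapped between first and last. They were 32.5 to 43.2 and 19.6 to 49.3 CPM on plate 3206-AT, and 31.1 to 48.5 and 18.8 to 62.3 CPM on plate 3284-AT. In the DMSO controls of plate 3240-AT they were 21.0 to 26.5 and 13.2 to 30.6 CPM. The part of depth and of these markers in the S100 values was not tested. In bulk RNA, fewer cells that express a gene and less RNA per cell cannot be told apart.

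The next comparison asks which members differed between dosed cells and the controls of the same plate. The solvent labels of dosed and control libraries matched in all chemicals except DDE, labelled DMSO with controls labelled water. At 25 µM, 30 of 199 tested pairs of member and chemical were called, 7 higher and 23 lower, across 8 chemicals; 4.85% of all genes were called over the same comparisons. At 2.5 µM it was 11 (0.412% of all genes), at 0.25 µM 1 (0.0748%) and at 0.025 µM 2 (0.0104%). In the other 13 chemicals at 25 µM no member was called by edgeR's or DESeq2's test, and 27 of 122 pairs had an unadjusted p under 0.05. Few genes of any kind were called by edgeR in these 13 at 25 µM, from 0 of 22301 (BPS) to 15 of 24295 (mercury). S100A7 passed the filter on low counts in 40 dose comparisons, was called in 0 of them by either tool, and had an unadjusted p under 0.05 in 1. That 1 was cadmium at 2.5 µM, where with a term for the number set S100A7 was called higher (log2 fold change 3.32, SE 0.73; edgeR adjusted p = 0.007; 0.56% of all genes called). Leaving out library 3 of each dosed group gave 5 calls at 2.5 µM and 0 at 0.25 µM, and leaving out library 4 gave 7 at 2.5 µM. The chemicals of a plate share its controls, so their values are not independent.

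**Figure D2:**
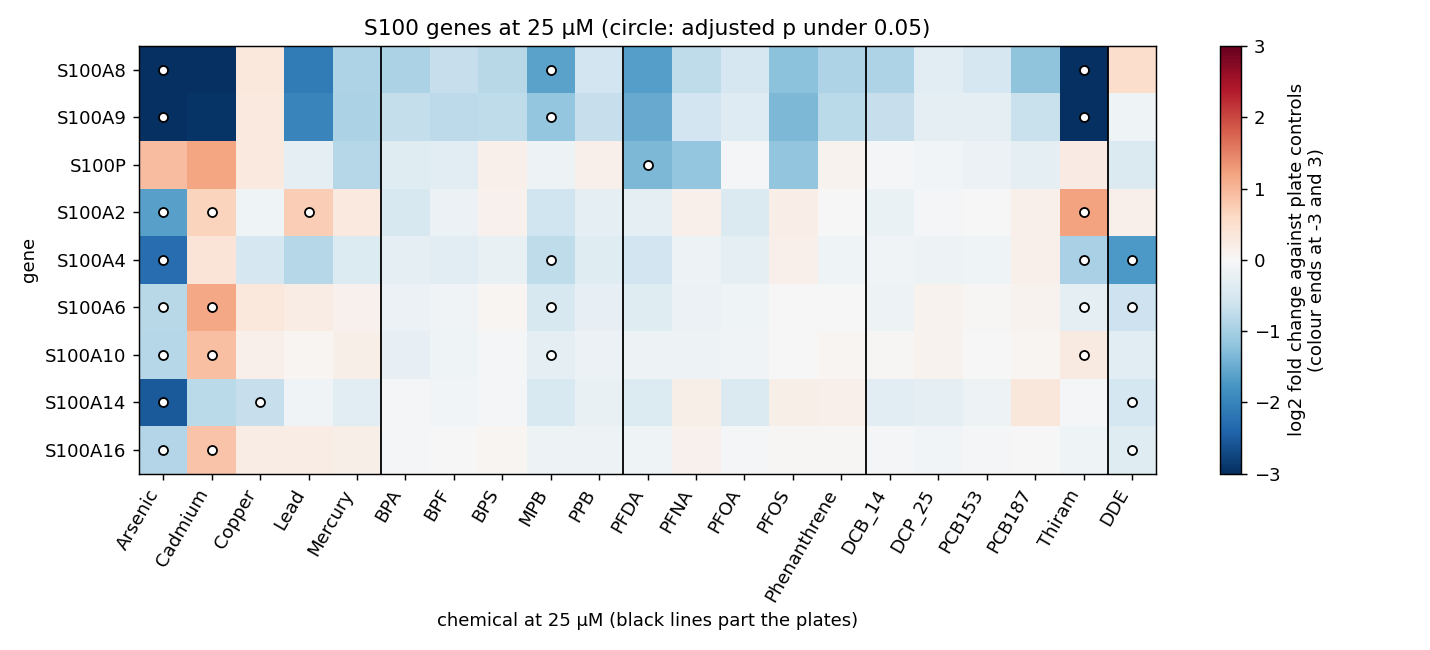
Log2 fold change of each member except S100A7 at 25 µM against the plate's controls for the 21 chemicals, with called members marked. The lowest values are those of S100A8 and S100A9 in arsenic and thiram, at log2 fold changes from -4.91 to -5.96.

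Arsenic and thiram, a dithiocarbamate fungicide, gave the lowest group means of S100A8 and S100A9 on their plates. At 25 µM arsenic, S100A8 was at 15.6, 13.6, 6.76 and 1.99 CPM in libraries 1 to 4 (mean 9.51 ± 6.29, SD, n = 4). All 4 were below the first-numbered controls, which started at 726 CPM, and libraries 3 and 4 were below the last-numbered controls, which started at 8.19 CPM. S100A8 fell by 5.75 on the log2 scale (SE 1.71; edgeR adjusted p = 0.00392); 41.4% of all genes were called in that comparison.

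S100A9 at 25 µM arsenic was at 34.1, 15.2, 6.37 and 5.42 CPM (mean 15.3 ± 13.3, SD, n = 4). Libraries 3 and 4 were again below the lowest last-numbered control, at 10.5 CPM. S100A9 fell by 4.91 (SE 1.44; edgeR adjusted p = 0.0034). The size depended on which controls it was read against: within the first-numbered libraries alone S100A8 fell by 5.83 (SE 0.33) and within the last-numbered alone by 2.08 (SE 0.64), and S100A9 by 4.92 and 2.06, all called; the difference between the sets had an edgeR adjusted p of 0.121 for S100A8 and 0.126 for S100A9.

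The fall of the pair was seen at the highest arsenic dose. S100A8 was at 543, 705, 23.3 and 28.4 CPM at 2.5 µM and at 797, 693, 48.9 and 40.4 CPM at 0.025 µM, so that in the first set some libraries lay below the lowest control and in the last set none did. Within the last-numbered libraries alone S100A8 was called higher at 0.025 µM (log2 fold change 1.37, edgeR adjusted p = 0.0233) and at 0.25 µM (1.67, adjusted p = 0.00167). Across the 4 doses, with controls left out, S100A8 changed by -1.63 and S100A9 by -1.41 log2 units per 10-fold dose, both called as a trend (29.7% of all genes had one).

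S100A14, an epithelial member linked to cell adhesion and motility, fell over a wider range of arsenic doses. Controls were at 290.4, 390.3 and 639 CPM (lowest, median, highest, n = 15). Libraries 1 to 4 were at 337, 298, 252 and 193 CPM at 0.025 µM, 277, 208, 171 and 179.9 CPM at 0.25 µM, 147, 179, 244 and 117 CPM at 2.5 µM, and 56.5, 44.8, 101 and 82.9 CPM at 25 µM. From 0.25 µM up no library reached the lowest control. S100A14 was called at 0.25 µM (log2 fold change -0.97, SE 0.18; 0.07% of all genes called), 2.5 µM (-1.27, SE 0.19; 1.96% of all genes) and 25 µM (-2.52, SE 0.21; edgeR adjusted p = 6.18e-19). By that test it was the 1 call at 0.25 µM over all chemicals, and it was lost without library 2 (adjusted p = 0.0875) or library 3 (adjusted p = 0.134). With the number-set term 15 pairs of member and chemical were called at 0.25 µM, among 0.291% of all genes.

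Against all controls, the other members that fell under 25 µM arsenic did so by less than the pair. S100A2 was at 594, 532, 436 and 374 CPM against controls of 1109 to 1819 CPM, with no overlap, and fell by 1.63 (SE 0.12; edgeR adjusted p = 2.14e-21). S100A4 was at 18.1, 17.5, 19.9 and 19.47 CPM, all below the lowest of the controls at 27.4 CPM, and fell by 2.30 (SE 0.50). S100A10 fell by 0.86, S100A16 by 0.88 and S100A6 by 0.83, so 8 members fell.

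S100P went the other way. At 25 µM arsenic it was at 37.4, 43.2, 34.5 and 30.6 CPM, above every control of plate 3153-AT (1.41 to 29.5 CPM), while at 2.5 µM it was at 17.1, 14.2, 6.62 and 2.90 CPM. It rose over the arsenic doses by 0.51 log2 units per 10-fold dose (edgeR adjusted p = 0.0216). It was not called at 25 µM against all controls, but it was with a term for the number set (log2 fold change 1.38, SE 0.20; adjusted p = 2.97e-09). The log2 fold change was 0.83 within the first-numbered libraries and 2.59 within the last, and these differed (edgeR adjusted p = 0.0105).

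**Figure D3:**
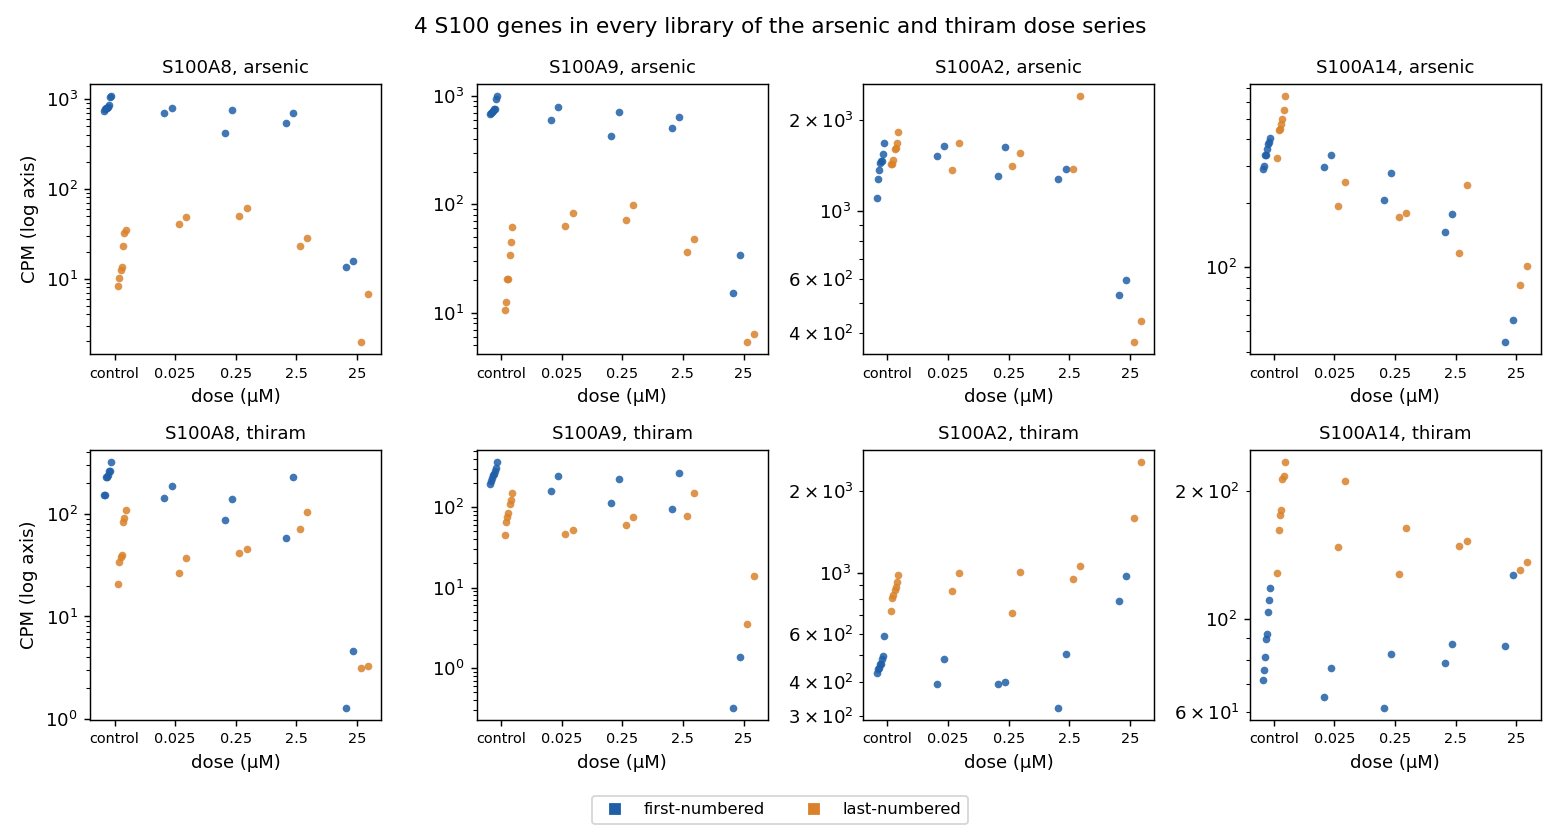
CPM (log axis) of S100A8, S100A9, S100A2 and S100A14 by dose of arsenic and of thiram, one point per library, beside the controls of the plate. S100A8 and S100A9 drop at 25 µM, while S100A14 under arsenic is already below the lowest control (290.4 CPM) from 0.25 µM.

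Under thiram at 25 µM the pair fell and S100A2 rose. S100A8 was at 1.30, 4.66, 3.12 and 3.32 CPM (mean 3.10 ± 1.38, SD, n = 4), all below the lowest control of plate 3284-AT at 20.6 CPM. It fell by 5.81 (SE 1.09; edgeR adjusted p = 8.2e-06), where 25.9% of all genes were called. S100A9 was at 0.324, 1.38, 3.51 and 14.1 CPM, below the lowest control at 45.2 CPM, and fell by 5.96 (SE 0.97; adjusted p = 3.17e-07).

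Within number sets the thiram fall was called too. S100A8 fell by 6.28 (SE 0.59) in the first-numbered libraries and by 4.14 (SE 0.88) in the last, and S100A9 by 8.26 (SE 0.66) and 3.70 (SE 0.64). At 2.5 µM thiram S100A8 was at 58.2, 226, 104 and 71.0 CPM, of which library 1 was below every first-numbered control (151 to 321 CPM), library 2 within that range, and libraries 3 and 4 within the range of the last-numbered controls (20.6 to 108 CPM). No member was called below 25 µM thiram in 30 comparisons by edgeR or DESeq2, and 3 had an unadjusted p under 0.05. With the number-set term none was called there either, among at most 0.0516% of all genes (at 2.5 µM).

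S100A2 at 25 µM thiram was at 976, 791, 1595 and 2552 CPM, against 429 to 587 CPM in the first-numbered and 723 to 981 CPM in the last-numbered controls. Each dosed library was above every control of its own number set. S100A2 rose by 1.20 (SE 0.28; edgeR adjusted p = 0.00036), while under arsenic it fell. S100A4 was at 46.02, 23.3, 16.8 and 68.9 CPM and fell by 0.98, S100A6 fell by 0.29 and S100A10 rose by 0.27; S100P, S100A14, S100A16 and S100A7 were not called. Over the 4 doses S100A8 changed by -1.42, S100A9 by -1.53, S100A4 by -0.27, S100A6 by -0.12 and S100A2 by 0.34 log2 units per 10-fold dose, each called as a trend (18.5% of all genes had one).

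The myeloid marker sum was lower in both chemicals with CD14 counted in it: it was 5.74 to 14.3 CPM at 25 µM arsenic, against 20.2 to 80.4 CPM in the controls, and 3.10 to 28.03 CPM at 25 µM thiram, against 18.8 to 62.3 CPM. Without CD14 the sum at 25 µM arsenic was 4.18 to 10.28 CPM, above every control of the plate (0 to 3.63 CPM). At 25 µM thiram it was 0 to 11.8 CPM, against 0 to 4.99 CPM in the controls. Of 11 epithelial identity genes, 11 were called under arsenic, where 41.4% of all genes were, 10 lower and 1 higher, with TP63 and KRT5 lowest (log2 fold changes -4.33 and -3.36), and 5 were called under thiram, 2 higher and 3 lower, where 25.9% of all genes were. The part of these changes in the S100 values was not tested.

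**Figure D4:**
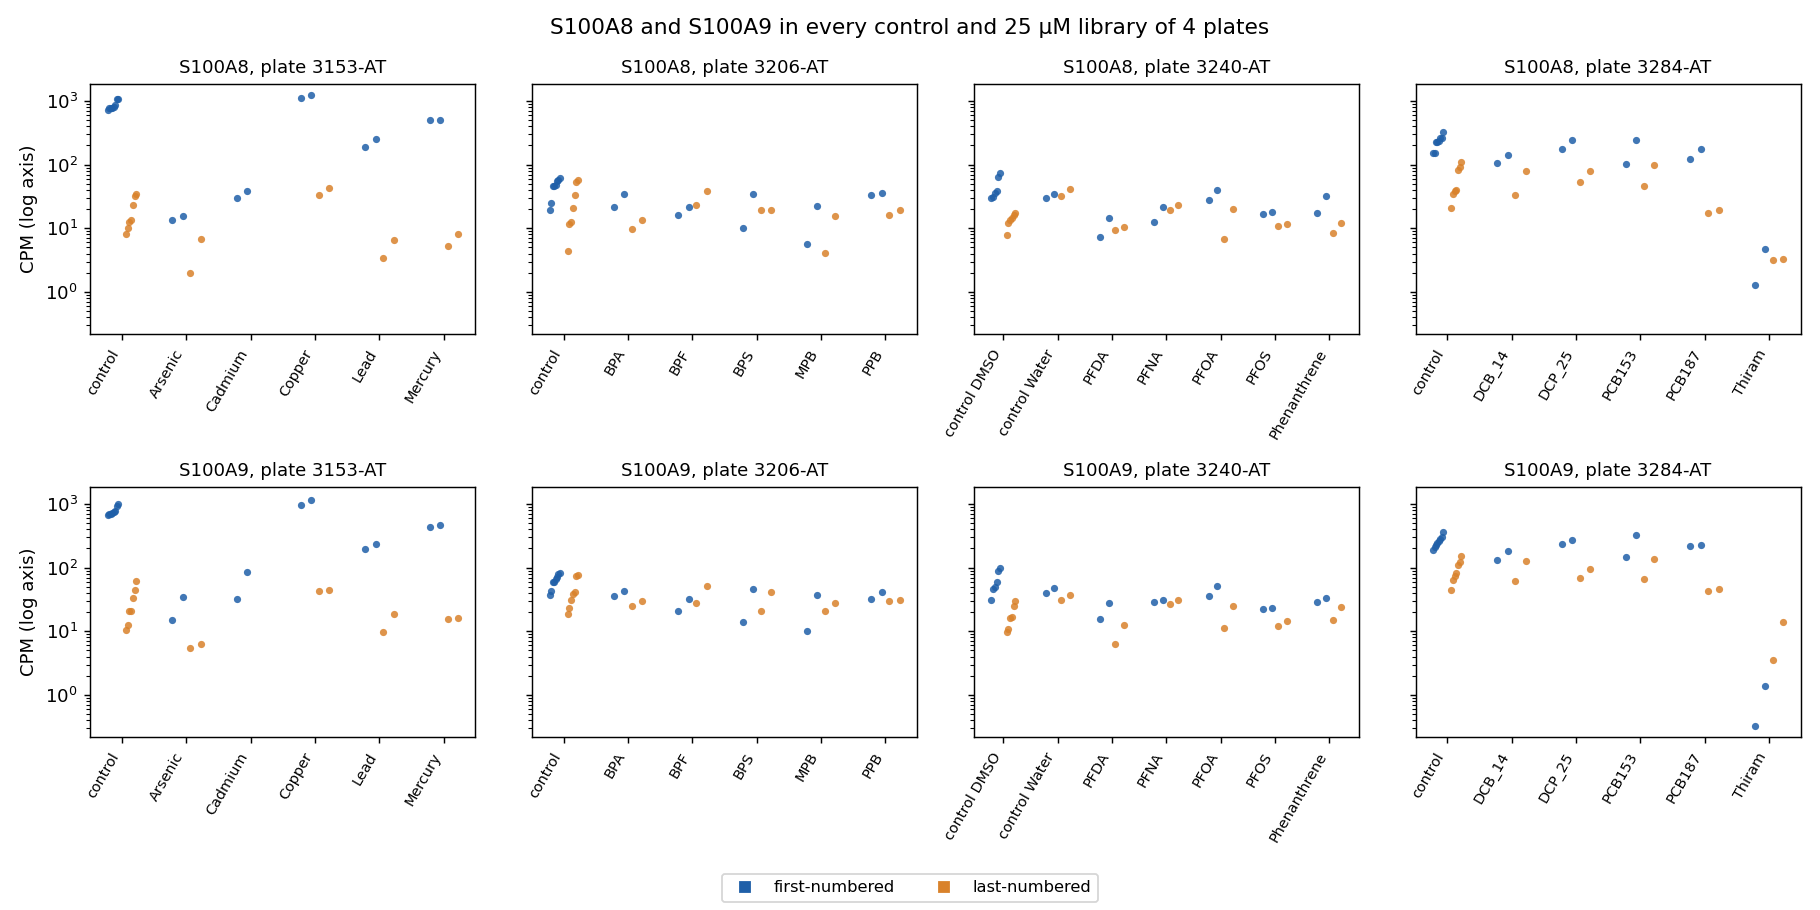
CPM (log axis) of S100A8 and of S100A9 in libraries of the 25 µM groups and the controls, by plate. S100A8 lies at 1.30 to 4.66 CPM in the thiram 25 µM libraries and at 1132 and 1242 CPM in copper 25 µM libraries 1 and 2.

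Lead gave a graded fall of the pair within each number set. S100A8 in libraries 1 and 2 was at 801 and 874 CPM at 0.025 µM, 599 and 707 at 0.25 µM, 490.0 and 569.7 at 2.5 µM, and 189 and 253 at 25 µM. In libraries 3 and 4 it was at 40.7 and 29.6, then 23.01 and 18.9, 11.8 and 23.2, and 3.45 and 6.55 CPM. At 25 µM each library was below every control of its own set. Libraries 3 and 4 were below all controls of the plate, and libraries 1 and 2 lay between the last-numbered and the first-numbered controls.

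Against all controls S100A8 was not called in lead (log2 fold change -2.11; edgeR adjusted p = 0.425). With the term for the number set it was (-1.995, SE 0.26; adjusted p = 1.71e-09), as was S100A9 (-1.79, SE 0.25; adjusted p = 1.56e-08). Same-numbered lead libraries deviated together, and with the replicate block the dose slope was -0.64 log2 units per 10-fold dose for S100A8 (SE 0.03; adjusted p = 9.29e-22) and -0.59 for S100A9 (SE 0.03), where 9.7% of all genes had a called slope.

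S100A2 rose under lead by the main test as well. Its libraries were at 2389, 2014, 2314 and 3174 CPM at 25 µM, above all 15 controls (1109 to 1819 CPM), with a log2 fold change of 0.73 (SE 0.10; edgeR adjusted p = 2.1e-07; 3.85% of all genes called). It was also called at 2.5 µM (0.57; 0.613% of all genes), and its slope was 0.18 per 10-fold dose (0.868% of all genes had a called slope). With the number-set term S100A6 and S100A16 were called higher and S100A4 lower (-0.66), so 6 members were called in place of 1 (6.52% of all genes called).

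Mercury and copper touched the pair less. Under 25 µM mercury S100A8 was at 499 and 505 CPM in libraries 1 and 2 and at 5.34 and 8.23 CPM in libraries 3 and 4; with the number-set term it fell by 0.94 (edgeR adjusted p = 0.0445). Paired by number, the slope was -0.32 for S100A8 and -0.35 for S100A9, both called (0.573% of all genes). Under 25 µM copper S100A8 was at 1132, 1242, 33.2 and 42.3 CPM, with 3 of the 4 above every control of their set, and it was called higher in the first-numbered libraries alone (log2 fold change 0.47, adjusted p = 0.0412) but not with all libraries.

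S100A14 fell under copper. It was at 277, 241, 280.4 and 216 CPM at 25 µM, all below the lowest control at 290.4 CPM (log2 fold change -0.69, SE 0.18; edgeR adjusted p = 0.00717; 5.09% of all genes called), and it was also called at 2.5 µM (-0.78; 3.0% of all genes called). S100P at 2.5 µM copper was at 7.66, 7.54, 3.50 and 2.14 CPM, and fell by 1.86 (SE 0.53; edgeR adjusted p = 0.0305). Libraries 1 and 2 lay below the first-numbered controls, and libraries 3 and 4 within the range of the last-numbered ones. The call was lost with DESeq2, without library 3 or 4 of each dosed group, and within the last-numbered libraries alone. Same-numbered copper libraries deviated together, and with the replicate block S100A2 had a called slope of -0.10 log2 units per 10-fold dose (SE 0.03; edgeR adjusted p = 0.00492; 8.91% of all genes), while that of S100A14 was not called (-0.11; adjusted p = 0.0505). Between 25 and 0.025 µM copper the blocked fit called S100P higher (0.83; adjusted p = 0.0211) and S100A2 lower (-0.34; adjusted p = 0.00421), among 7.99% of all genes, and neither was called without the block.

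Cadmium at 25 µM rested on 2 shallow libraries, and over all genes their log2 fold changes had a median of -1.42 by edgeR and 0.07 by DESeq2. By edgeR 4 members were called higher, among 11% of all genes: S100A6 at 3012 and 4372 CPM (1.16, SE 0.34), S100A10 at 1246 and 1066 CPM (0.91), S100A16 at 2212 and 2813 CPM (0.86) and S100A2 at 2108 and 2631 CPM (0.67). Each of these libraries lay above all 15 controls for the gene. Without library 2 of each dosed group, which leaves 1 cadmium library, 2 members were called. S100A8 was at 38.9 and 29.4 CPM, far below the first-numbered controls that match the numbers of these libraries, and was called lower with the number-set term (-4.53, SE 0.75; edgeR adjusted p = 1.46e-06), as was S100A9 (-3.62).

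Under MPB 5 members fell at 25 µM, where 1.38% of all genes were called. S100A8 was at 5.63, 22.2, 15.5 and 4.13 CPM, against controls of 4.42 to 61.1 CPM, and fell by 1.60 (SE 0.40; edgeR adjusted p = 0.0163). S100A9 was at 10.3, 37.6, 20.7 and 28.3 CPM, against 19.02 to 81.1 CPM, and fell by 1.15 (SE 0.32; adjusted p = 0.0339). Both overlapped the controls.

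S100A4 under 25 µM MPB was at 25.0, 44.3, 56.1 and 38.3 CPM against controls of 46.3 to 96.6 CPM and fell by 0.76 (SE 0.17; edgeR adjusted p = 0.00619), S100A6 fell by 0.49 and S100A10 by 0.26. Without library 1 of each dosed group, 0 members were called in MPB at 25 µM, and without library 4, 3 were. S100A9 was not called by DESeq2 (adjusted p = 0.0635). At 2.5 µM S100A4, S100A6, S100A10 and S100A16 were called lower (-0.73, -0.43, -0.34 and -0.28; 0.915% of all genes called).

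Under BPA, S100A4 and S100A6 fell at 0.025 and 2.5 µM, and no member was called at 25 µM. S100A4 was at 43.5, 45.3, 37.0 and 37.7 CPM at 0.025 µM, all below the lowest control at 46.3 CPM (log2 fold change -0.77, SE 0.17; edgeR adjusted p = 0.0212; 0.13% of all genes called), and at 62.6, 82.6, 40.0 and 39.9 CPM at 25 µM. S100A6 was called at 0.025 µM (-0.53) and 2.5 µM (-0.46), and S100A4 (-0.67) and S100A10 (-0.40) at 2.5 µM (0.605% of all genes called). The S100A4 call at 0.025 µM was lost with DESeq2 and without library 1, 3 or 4 of each dosed group. At 2.5 µM it was lost with DESeq2 and without library 3 or 4, and that of S100A6 without library 4. The difference between 0.025 and 25 µM was not called for S100A4 as a dose trend. In the other chemicals of the plate S100A4 at 0.025 µM had log2 fold changes of -0.62 (BPS), -0.52 (BPF), -0.45 (MPB) and -0.29 (PPB), none called. Across chemicals at 0.25 µM, S100A4 had an unadjusted p under 0.05 in 16 of 21, with 0 called by edgeR and 1 by DESeq2. Its log2 fold changes at that dose ran from -1.51 to -0.09, below the controls in all 21 chemicals.

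Under DDE, S100A4, S100A14, S100A16 and S100A6 fell at 25 µM, where 7.77% of all genes were called. S100A4 was at 127, 42.3, 31.5 and 18.03 CPM against 118, 167 and 275 CPM (lowest, median, highest) in the controls, with library 1 inside their range, and fell by 1.73 (SE 0.46; edgeR adjusted p = 0.0326). S100A14 was at 374, 310.0, 343 and 321 CPM, below every control (386 to 621 CPM), and fell by 0.52. These 4 calls went to 0 when replicate 2, or replicate 3, of each DDE dose was left out. The DDE libraries are labelled DMSO and their controls water, so solvent and DDE cannot be told apart.

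In PFDA, S100P was the 1 member called at 25 µM (0.0668% of all genes). It was at 3.19, 5.41, 8.14 and 9.56 CPM against 6.66, 16.2 and 31.02 CPM in the DMSO controls, overlapping, and fell by 1.34 (SE 0.31; edgeR adjusted p = 0.0447). The call was lost when any 1 of the 4 library numbers was left out. With the number-set term S100P was called lower in PFDA (-1.39), PFNA (-1.19) and PFOS (-1.27), and S100A8, S100A9 and S100A6 also in PFDA (-1.57, -1.45 and -0.37; 0.488% of all genes called).

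With the number-set term, 45 of 190 pairs over the 20 chemicals of the 4 plates were called at 25 µM, 12 higher and 33 lower in 11 chemicals, where 5.12% of all genes were called. S100A8 was among them in arsenic, cadmium, lead, mercury, MPB, PFDA and thiram, lower in each. For trends over the 4 doses, 17 pairs were called without that term, 6 higher and 11 lower, among 3.12% of all genes. PFOA, whose libraries also paired by number, had blocked slopes of -0.31 for S100A8 (edgeR adjusted p = 0.00772) and -0.28 for S100A9 (0.247% of all genes had a called slope).

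Plate 3240-AT held water and DMSO controls, and 4 members separated them, where 4.08% of all genes were called. S100A2 was at 274, 392 and 500.1 CPM (lowest, median, highest) in 12 DMSO controls and at 1226, 1783, 1169.8 and 1143 CPM in the 4 water controls. The groups did not overlap, and S100A2 was higher in water by 1.80 (SE 0.11; edgeR adjusted p = 1.02e-25). PFOA libraries, which were in water, had S100A2 at 958, 721, 1065 and 1193 CPM at 25 µM.

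S100A14 was at 41.98 to 81.3 CPM in DMSO and at 140.1, 179, 168 and 124 CPM in water, without overlap (log2 difference 1.45, SE 0.14; edgeR adjusted p = 2.94e-14). S100A16 was at 942 to 1290.1 CPM in DMSO and at 1539.8, 1569.5, 1411 and 1323 CPM in water (0.45, SE 0.06), also without overlap. S100A4 was higher in water by 0.58 (adjusted p = 0.0139), with overlap. S100A8, at 7.89 to 74.0 CPM in DMSO and 29.7, 35.03, 41.7 and 31.6 CPM in water, was not called, nor was S100A9. Within the last-numbered controls alone both were called higher in water, S100A8 by 1.45 (edgeR adjusted p = 0.00071) and S100A9 by 0.90 (adjusted p = 0.0499), while within the first-numbered controls both had a log2 difference of -0.51 and were not called. S100A4 was not called within the last-numbered controls (0.48; adjusted p = 0.155).

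**Figure D5:**
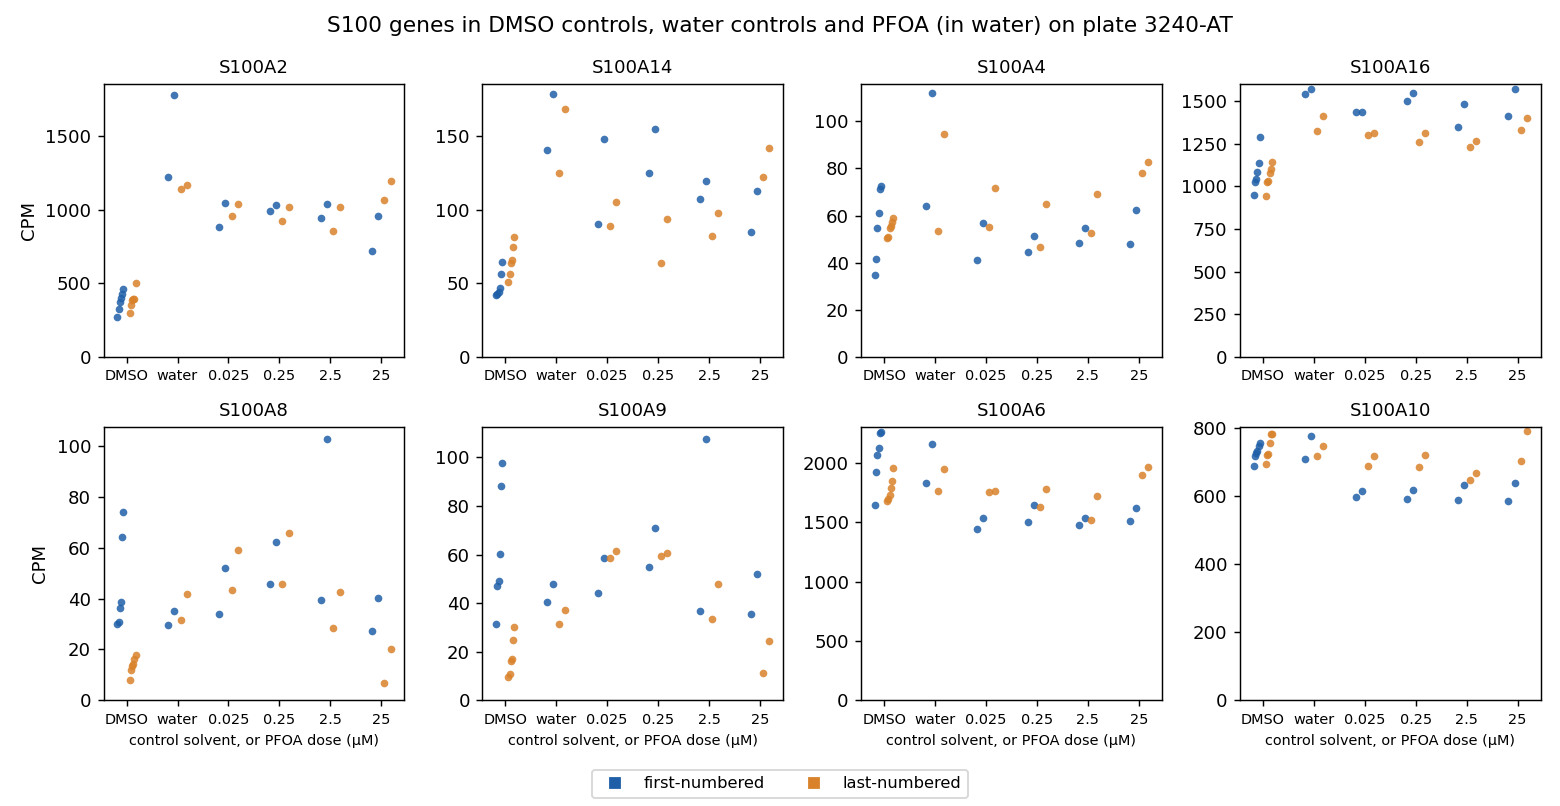
CPM (linear axis) of S100A2, S100A14, S100A4, S100A16, S100A8, S100A9, S100A6 and S100A10 on plate 3240-AT, one point per library. The 12 DMSO controls, the 4 water controls and the PFOA dose groups are drawn. S100A2 (274 to 500.1 against 1143 to 1783 CPM), S100A14 and S100A16 do not overlap between the solvents, while S100A8 and S100A9 do.

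Partners and receptors of S100 proteins were read from a list of 15 genes. The calprotectin receptors were low: AGER, which encodes RAGE, had plate medians from 1.16 to 1.75 CPM, and TLR4 and CD36 had medians of 0. Under arsenic, 9 of 15 were called (41.4% of all genes), 6 higher and 3 lower: ANXA5 (1.55) and MYH9 (1.05), the heavy chain of the myosin that S100A4 binds, were highest and ANXA11 (-0.54) and BSG (-0.34) lowest. Under thiram 8 were called (25.9% of all genes), 7 higher and 1 lower, with MYH9 at 1.47, ANXA5 at 0.95, BSG at -0.28 and ANXA2 at 0.24. The median over the tested list was 0.24 under arsenic and 0.36 under thiram, beside 0.00 and -0.11 over all genes.

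CACYBP, the S100A6 partner, rose under arsenic (0.64, SE 0.08), cadmium (1.45, SE 0.13) and thiram (0.84, SE 0.08), and ANXA2, the S100A10 partner, rose in the same 3 chemicals (0.18, 0.96 and 0.24). S100A10 itself fell under arsenic (-0.86) and rose under cadmium (0.91) and thiram (0.27). Of the 15, 6 were called in cadmium, all higher (11% of all genes called), and 2 in copper, ANXA5 (0.52) and ANXA11 (-0.29), where 5.09% of all genes were called. Lead called 1, ANXA5 (0.32; 3.85% of all genes), and MPB 1, MYH9 (0.32; 1.38%). DDE called 0 of the 13 tested, where 7.77% of all genes were called.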

How the data were processed

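The authors deposited 1 table of raw read counts per gene for each library; per the submitters' processing notes, reads went through FastQC, MultiQC, STAR and featureCounts on GRCh38. Which annotation, strand setting and versions they used is not given in the sources. The members and lists were chosen with earlier results of these data known. Counts were scaled by TMM to CPM and tested per plate with edgeR 4.0.16 (R 4.3.3) quasi-likelihood fits, 1 mean per chemical and dose, after filterByExpr (minimum count 10, total 15); Benjamini-Hochberg adjustment ran over every gene tested in a comparison, with calls made below 0.05. Dose trends are linear contrasts over the 4 doses in log10 steps. Each library's total, 1.43 to 25.8 M counts, limits precision at low CPM; CPM were not given intervals. Alternatives were DESeq2 1.42.0, RLE scaling, other filters, number sets, left-out libraries and a replicate block. The scripts were tested on simulated data with 200 changed genes. Numbers were taken to pair dosed libraries where every same-number pair correlated over 0.1 in its deviations: 4 of 20 chemicals (copper, lead, mercury and PFOA). All 10 members and, of the other lists, the called genes with the 2 highest and 2 lowest fold changes are named; further ones (CACYBP, ANXA2) were picked after their values were seen. S100A7 is not listed for the DDE plate. Start regions came from RefSeq (GRCh38.p14), exon lengths from GENCODE v29.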

Additional observations from a re-analysis of the deposited data

Results flagged for a closer look

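In 11 of 203 checks of a member in a group of 4 to 10 libraries, 1 library stood apart by Dixon's criterion. Chance alone meets it in about 1 in 20 checks. S100A7, at or near 0 in the others, reached 2.572 CPM in arsenic 25 µM library 1, 1.185 in DCP_25 25 µM library 1, 0.9965 in PCB187 25 µM library 2 and 1.554 in PFNA 25 µM library 4. In DCP_25, PCB187 and PFNA the others were all at 0. There any count in 1 library meets the criterion, so that rate does not apply. S100P was at 14.54 CPM in PPB 25 µM library 2 (others 5.671 to 7.145) and at 4.092 in PCB153 25 µM library 2 (others 10.79 to 11.83). S100A10 was at 790.5 CPM in PPB 25 µM library 2 (others 721.8 to 727.6), S100A16 at 1414 in thiram 25 µM library 1 and at 2193 in DDE plate control 13 (others 1797 to 1914), S100A2 at 1783 in water control 40 of plate 3240-AT (others 1143 to 1226) and S100A9 at 9.165 in DDE plate control 16 (others 1.33 to 4.956).

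The effect of 25 µM differed between first-numbered and last-numbered libraries in 14 of 190 tests of members (edgeR interaction), beside 1129 of 472140 over all genes. As first minus last on the log2 scale, the differences were -1.699 for S100P, 0.6386 for S100A2 and -0.8215 for S100A6 in arsenic (adjusted p = 0.0105, 0.0289 and 0.00302). They were 0.53 for S100A2 and 0.409 for S100A6 in BPA, and -1.292 for S100A8, -1.072 for S100A9 and 0.4377 for S100A2 in BPF. They were -0.3339 for S100A6 and -0.8285 for S100A14 in MPB, -2.087 for S100A8 and -1.759 for S100A9 in PFNA, and -0.8125 for S100A9 and 0.9441 for S100A14 in DCB_14.

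The cadmium 25 µM library set aside for its barcode had S100A2 at 996.8 CPM and S100A14 at 300.8 CPM, above the controls of the plate whose barcode it carries (429.3 to 981.1 and 71.69 to 235 CPM). The cause was not tested.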

How the results depend on the processing

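No member called in the main comparisons changed direction under the alternatives run. In last-numbered libraries alone 19 values that were not called in the main comparisons were called in the opposite direction: 10 of S100A9, 8 of S100A8 and 1 of S100A6, among them S100A9 between solvents (-0.12 to 0.90). Of the recomputed values of single called members, 799 stayed called and 102 did not; the counts for arsenic (8), thiram (6), the solvents (4) and the first against last controls (18) stayed within 1.5 times under every alternative run on them. Members called at 25 µM went from 30 to 63 with no filter on low counts, 49 with the number-set term and 56 in first-numbered libraries alone, and to 22 to 31 when 1 library number was left out. At 2.5 µM 11 became 41, 20, 27 and, in last-numbered libraries alone, 25 (5 to 11 with 1 number left out). At 0.25 µM 1 became 38, 15, 28 and 36, 2 with DESeq2 and 8 with the groups of the comparison alone (0 to 3). At 0.025 µM 2 became 32, 7, 22 and 28, and 1 with DESeq2 (1 to 3). Dose trends went from 17 to 45, 29, 49 and 37 (10 to 14). With the replicate block, trends went to 52 of 181 and members called between 25 and 0.025 µM within a chemical from 25 to 52. The numbers paired in 4 chemicals only. By chemical, that block called a trend in 0% (DCB_14) to 45.9% (arsenic) of all genes. With the number-set term, 5.12% of all genes were called at 25 µM and 0.291% at 0.25 µM, beside 4.85% and 0.0748% in the main fit. For the other alternatives such shares are not given here, so their counts cannot be read as particular to the members.

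By chemical at 25 µM, with 1 number left out, DDE's 4 went to 0 to 5, arsenic stayed at 8, thiram went to 5 to 7, cadmium's 4 to 2 to 4, copper's 1 to 1 to 2, lead stayed at 1, MPB's 5 went to 0 to 7 and PFDA's 1 to 0. Copper went to 3 with the term and 7 in first-numbered libraries; lead to 2 without the filter, 6 with the term, 4 in first-numbered and 3 in last-numbered libraries; MPB to 3 with DESeq2 and 8 in first-numbered libraries; PFDA to 5 without the filter, 4 with the groups alone, 4 with the term, 3 and 2. The causes were not tested. Leaving out a water control gave 3 to 4 solvent calls. Depth limits S100A7, with 0 counts in 320 of 377 libraries, and the DDE plate's S100A8, at 0 to 3.96 CPM in its controls, and the labels do not say what the library numbers mean.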

Other observations

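Epithelial antimicrobial and alarm genes, a list of 16, moved in both directions. At 25 µM arsenic 10 were called (41.4% of all genes), 7 higher and 3 lower: LCN2, an iron-sequestering antimicrobial protein, rose by 4.08 (SE 0.34) on the log2 scale and CAMP, at most 1.30 CPM on that plate, was called higher, while SAA2 fell by 3.03 and LTF, the lactoferrin gene, with 0 counts in 55 of the plate's 93 libraries, was called lower. At 25 µM thiram 4 were called (25.9% of all genes): the neutrophil chemokine gene CXCL8 rose by 2.86 (SE 0.23), and SAA2, SAA1 and ZC3H12A fell by 5.21, 3.62 and 1.48. Under cadmium (11% of all genes called) CXCL8 rose by 4.20 and IL1B by 4.04. Lead called 5 (3.85% of all genes), with IL1B (1.43) and IL1A (1.33) the highest.

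Among 11 other S100 genes, S100A3 fell under arsenic (-1.95, SE 0.41) and thiram (-1.26, SE 0.35). S100A11, with a median of 763 CPM over all libraries, rose under arsenic (0.68, SE 0.16) and cadmium (1.25, SE 0.22), and S100A13 fell under arsenic (-0.54, SE 0.23). Under DDE, S100A5 (-2.45) and S100A1 were called lower, the latter at levels near 0.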
